A study of Mus musculus with 8 samples.

Results

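Genes of neutrophils and their granules were followed in the livers of mice given an inhibitor of the microRNA miR-128-3p. They were S100a8, S100a9, Ly6g, Retnlg, Elane, Mpo, Csf3r, Camp, Ngp and Ltf, 10 of the 30632 genes measured. The genes were named with earlier results of the same arrays known. A gene's probe set was to be chosen by the highest mean signal over the 8 arrays, but each of the 10 genes had 1 probe set of its own, so no measured value decided between probe sets. The first group held the livers of 4 male C57BL/6 mice given 13 weeks of high fat diet, after which anti-miR-128-3p was injected into the peritoneum 5 times. The second group held the livers of 4 male C57BL/6 mice on the same diet that received 5 control injections, called vehicle in 1 label and control in the others. A treatment field names miR-128-3p itself where the titles name its inhibitor, and the groups follow the titles. All values are RMA log2 signals from Affymetrix arrays, on which 1 unit is a 2-fold difference.

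Neutrophils are short-lived white blood cells that are made in the bone marrow and enter tissue during infection or injury. As they mature they fill granules in a fixed order: the primary granules of promyelocytes hold myeloperoxidase and elastase, and the secondary granules of later stages hold lactoferrin and cathelicidin. The transcripts of granule proteins are mostly made in the marrow, whereas mature cells in blood keep large amounts of S100a8 and S100a9 transcript. A liver sample holds few neutrophils beside its hepatocytes, and in bulk RNA fewer cells of a type and less RNA per cell cannot be told apart.

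The microRNA bound by the injected inhibitor is shown here with its seed, bases 2 to 8, in capitals, as RefSeq gives it for the mouse assembly GRCm38.p6 (Mir128-1 on chromosome 1 and Mir128-2 on chromosome 9 give the same mature sequence).
mmu-miR-128-3p: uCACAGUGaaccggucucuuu

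Because 8 of the 10 genes moved together in 1 liver, as described below, promoter windows were also read from RefSeq (GRCm38.p6). Each window holds the 250 bases before the gene's start, and all 10 genes matched. Capitals mark 3 short motifs bound by factors of granulocyte development, searched on both strands: the C/EBP core TTNNGNAA, the PU.1 box GAGGAA and the RUNX core TGTGGT. No match of one motif overlapped a match of another in these 10 windows. The first 4 windows belong to genes that were high in that liver, and the last, Ly6g, to a gene that was not.
S100a8, chr3:90668821-90669070, plus strand: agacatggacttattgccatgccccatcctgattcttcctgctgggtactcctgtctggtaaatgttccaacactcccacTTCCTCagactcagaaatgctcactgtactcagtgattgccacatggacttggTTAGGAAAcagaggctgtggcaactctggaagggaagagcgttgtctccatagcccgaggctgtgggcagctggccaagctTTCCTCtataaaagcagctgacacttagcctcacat
Ngp, chr9:110419558-110419807, plus strand: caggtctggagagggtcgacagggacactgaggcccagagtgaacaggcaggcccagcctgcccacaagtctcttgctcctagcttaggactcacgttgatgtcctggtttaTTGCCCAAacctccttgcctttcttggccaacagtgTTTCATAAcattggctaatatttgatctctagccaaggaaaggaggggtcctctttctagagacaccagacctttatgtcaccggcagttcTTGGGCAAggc
Ltf, chr9:111019042-111019291, plus strand: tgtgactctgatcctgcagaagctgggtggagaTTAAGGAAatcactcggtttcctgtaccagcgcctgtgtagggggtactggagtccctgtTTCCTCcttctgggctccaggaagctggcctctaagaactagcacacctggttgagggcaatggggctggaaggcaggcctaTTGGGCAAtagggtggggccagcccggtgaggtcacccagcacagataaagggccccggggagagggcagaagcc
Mpo, chr11:87793534-87793783, plus strand: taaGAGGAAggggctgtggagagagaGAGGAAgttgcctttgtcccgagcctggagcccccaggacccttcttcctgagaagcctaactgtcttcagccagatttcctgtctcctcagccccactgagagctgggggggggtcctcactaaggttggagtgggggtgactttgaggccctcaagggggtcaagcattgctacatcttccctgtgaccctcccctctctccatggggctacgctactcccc
Ly6g, chr15:75155011-75155260, plus strand: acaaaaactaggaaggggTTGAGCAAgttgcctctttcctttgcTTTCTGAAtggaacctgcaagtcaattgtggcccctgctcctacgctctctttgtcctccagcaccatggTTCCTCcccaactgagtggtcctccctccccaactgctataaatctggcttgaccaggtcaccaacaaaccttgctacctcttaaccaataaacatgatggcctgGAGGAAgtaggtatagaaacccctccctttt
The C/EBP core was found in 6 of the 10 windows, against 36.9% of the 27025 promoter windows of all genes. The PU.1 box was found in 6 of the 10, against 23.1% of all windows, and the RUNX core in 1 of the 10, against 14.2%. Ly6g held as many matches as S100a8 or more for the C/EBP core (2 against 1) and the PU.1 box (2 against 2), and Camp held none of the 3 motifs. These are matches of letters and do not locate binding.

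No neutrophil gene differed between the groups beyond the spread between livers. With all 8 livers, 8 of the 10 genes had a negative log2 difference, against 50.9% of all genes, and the median difference of the 10 was -0.31, against -0.0017 over all genes. The limma test across all 30632 genes called 0 of the 10 at an adjusted p under 0.05, and called 0% of all genes. At an unadjusted p under 0.05 it found 0 of the 10 and 7.63% of all genes. The groups overlapped in all 10 genes, while they did not overlap in 4.41% of all genes. The adjusted p of the 10 genes lay between 0.735 for Csf3r and 0.962 for S100a9 by limma.

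The negative differences rested on 1 control liver. Control replicate 1 had the highest signal of the 8 livers in 8 of the 10 genes, against 16.6% of all genes. In 5 of the 10, S100a8, S100a9, Retnlg, Ngp and Ltf, it stood at least 1 log2 unit above each of the other 7 livers. That held for 15 of all 30632 genes, or 0.049%. The same count of genes, of any kind, was 4, 0, 11 and 3 in anti-miR-128-3p replicates 1 to 4 and 7, 1 and 12 in control replicates 2 to 4, and none of the 10 neutrophil genes was among them. By the number of such genes control replicate 1 was close to control replicate 4 and to anti-miR-128-3p replicate 3.

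**Figure D1:**
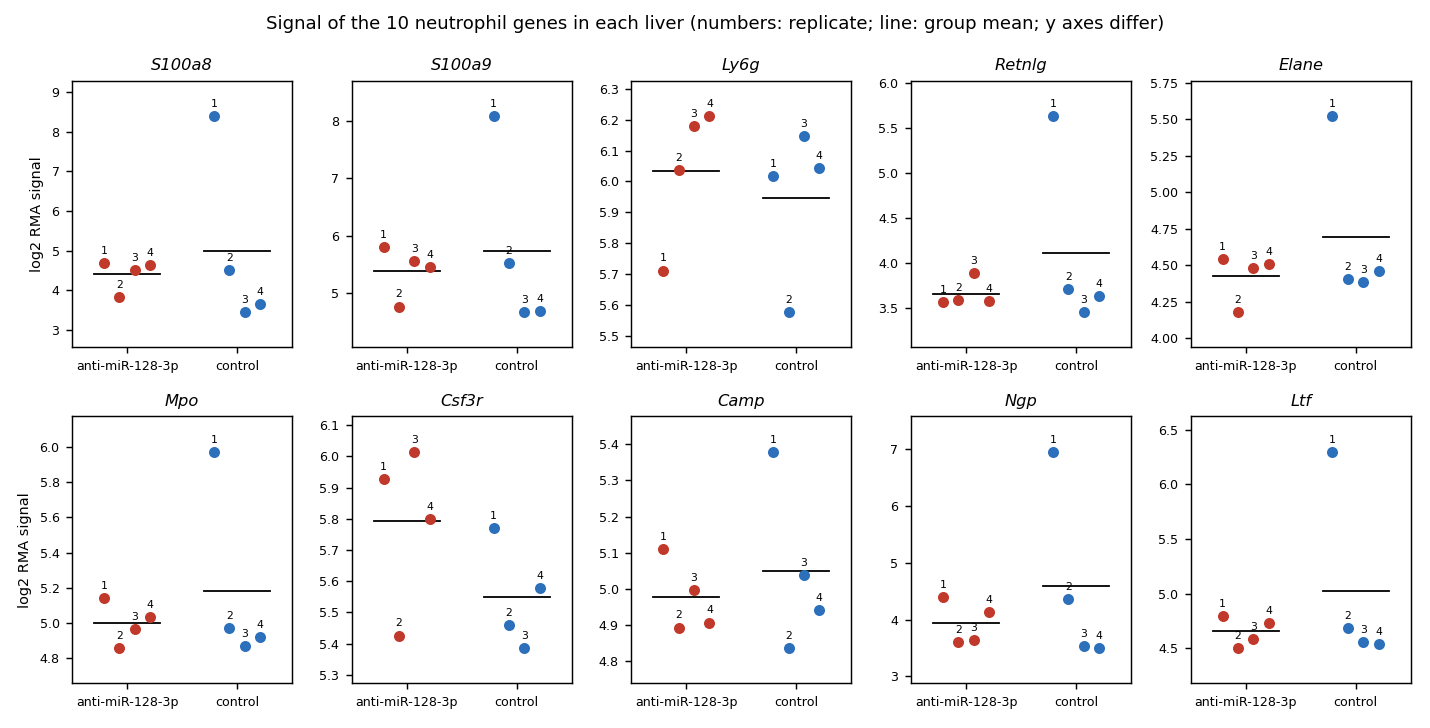
RMA log2 signal (y axis, scaled separately in each panel) of the 10 neutrophil genes in the anti-miR-128-3p livers and the control livers (x axis). Each point is a liver labelled with its replicate number, and the line is the group mean. Control replicate 1 lies above all other livers in 8 panels, and not in those of Ly6g and Csf3r.

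**Figure D2:**
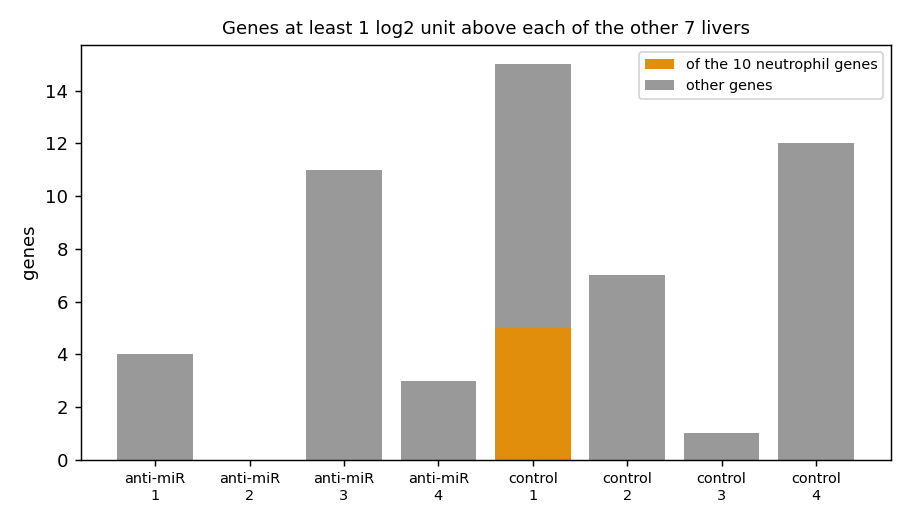
Number of genes (y axis) whose signal in a liver (x axis) was at least 1 log2 unit above each of the other 7 livers, with the neutrophil genes in orange. Control replicate 1 has 15 such genes, 5 of them among the 10 neutrophil genes.

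S100a8 and S100a9 encode the subunits of calprotectin, a calcium-binding and metal-binding protein that fills the neutrophil cytosol. S100a8 was at 4.70, 3.82, 4.52 and 4.63 in anti-miR-128-3p replicates 1 to 4, against 8.38, 4.52, 3.45 and 3.65 in control replicates 1 to 4. Control replicate 1 was 12.9-fold above the next highest liver, and the other 7 livers overlapped between the groups. The difference was -0.58 ± 0.96 (log2 difference ± SE, n = 4 each, limma adjusted p = 0.949). S100a9 was at 5.80, 4.77, 5.56 and 5.45 in anti-miR-128-3p livers, against 8.08, 5.52, 4.67 and 4.69 in control livers. Its highest liver was again control replicate 1, 4.86-fold above the next, and the difference was -0.35 ± 0.69. The 2 genes ordered the livers alike, with r = 0.99 over the 8 livers and r = 0.97 over the 7 without control replicate 1. In both genes, control replicates 3 and 4 and anti-miR-128-3p replicate 2 were the lowest.

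Mpo and Elane encode myeloperoxidase and neutrophil elastase of the primary granule. Mpo was at 5.14, 4.86, 4.96 and 5.03 in anti-miR-128-3p livers, against 5.97, 4.97, 4.87 and 4.92 in control livers. Without control replicate 1 the remaining livers spanned only 0.28 log2 units, and control replicate 1 was 1.78-fold above the highest of them. Elane was at 4.54, 4.18, 4.48 and 4.50 in anti-miR-128-3p livers, against 5.52, 4.41, 4.39 and 4.46 in control livers. Here control replicate 1 was 1.97-fold above the next liver, and anti-miR-128-3p replicate 2 was the lowest. The differences were -0.19 ± 0.23 for Mpo and -0.27 ± 0.24 for Elane (log2 difference ± SE).

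Ltf, Camp and Ngp encode proteins of the secondary granule: lactoferrin, which binds iron, the antimicrobial peptide precursor cathelicidin, and neutrophilic granule protein, which is related in sequence to cathelicidin. Ngp was at 4.41, 3.60, 3.64 and 4.14 in anti-miR-128-3p livers, against 6.96, 4.37, 3.54 and 3.51 in control livers. Control replicate 1 was 5.85-fold above the next liver, which was anti-miR-128-3p replicate 1. Ltf was at 4.80, 4.51, 4.59 and 4.73 in anti-miR-128-3p livers, against 6.30, 4.69, 4.56 and 4.54 in control livers, a 2.83-fold gap to the next liver. Camp varied least of the 3, with 5.11, 4.89, 4.996 and 4.91 in anti-miR-128-3p livers and 5.38, 4.84, 5.04 and 4.94 in control livers. Its control replicate 1 was also the highest liver, by 1.21-fold. The differences were -0.65 ± 0.69 for Ngp, -0.36 ± 0.36 for Ltf and -0.07 ± 0.11 for Camp.

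Retnlg, Csf3r and Ly6g are genes of mature neutrophils. Retnlg, a secreted protein of the resistin family, was at 3.57, 3.59, 3.88 and 3.58 in anti-miR-128-3p livers, against 5.63, 3.72, 3.45 and 3.63 in control livers. Control replicate 1 was 3.35-fold above the next liver, anti-miR-128-3p replicate 3, and the difference was -0.45 ± 0.42.

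Csf3r, the receptor for the granulocyte growth factor G-CSF, had a different order. It was at 5.93, 5.43, 6.01 and 5.80 in anti-miR-128-3p livers, against 5.77, 5.46, 5.39 and 5.58 in control livers. In 3 anti-miR-128-3p livers it was above every control liver, and replicate 2 lay among the controls. The difference was 0.24 ± 0.13 (limma adjusted p = 0.735), the smallest p of the 10 genes and not past the threshold. The anti-miR-128-3p mean was 5.79 ± 0.26 and the control mean 5.55 ± 0.17 (SD, n = 4 each).

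Ly6g, the surface protein by which mouse neutrophils are usually stained, did not follow the other genes. It was at 5.71, 6.04, 6.18 and 6.21 in anti-miR-128-3p livers, against 6.02, 5.58, 6.15 and 6.04 in control livers. Control replicate 1 lay in the middle of the 8 livers, and the difference was 0.09 ± 0.14. Over the 8 livers Ly6g had r = -0.07 with S100a8. Ly6g belongs to a family of closely related genes, so its signal is uncertain, and whether its probes bind transcripts of its relatives was not tested. Ly6c2, a relative that marks monocytes, was at 7.52, 9.19, 8.32 and 8.97 in anti-miR-128-3p livers, against 7.14, 8.48, 8.98 and 8.51 in control livers.

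The level in the other livers limits what these values can show. The median of the negative control rows lay between 4.32 and 4.48 on the 8 arrays. In 3 of the 10 genes the median over the 7 livers other than control replicate 1 was not above this range. Retnlg and Ngp lay below these negative control medians, and Elane, at 4.46, lay within their range. S100a8 was also below these medians in anti-miR-128-3p replicate 2 and in control replicates 3 and 4, and averaged 3.88 over control replicates 2 to 4. Its difference without control replicate 1 therefore rests in part on signals not above the negative controls, as does its gap to that liver. The 95th percentile of the negative control rows lay between 7.40 and 7.53, above all 10 genes in every liver except S100a8 and S100a9 in control replicate 1. No detection call accompanies the values, and a fold against a signal near that of the negative controls understates the change. The median signal of all genes was between 5.04 and 5.12 on the 8 arrays, and the arrays correlated across genes at r = 0.992 to 0.996.

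Without control replicate 1 the sign of the comparison turned. All 10 genes then had a positive log2 difference between the 4 anti-miR-128-3p livers and the 3 remaining control livers, against 53.1% of all genes, and their median difference was 0.10, against 0.0061 over all genes. The liver left out was the highest of the 8 livers in 8 of these 10 genes, against 16.6% of all genes. Leaving it out raises the differences of those 8 by construction, so the values over all genes are not a like comparison. S100a8 was higher by 0.54 ± 0.29 (log2 difference ± SE, limma adjusted p = 0.698), S100a9 by 0.43 ± 0.28 (adjusted p = 0.766 by limma) and Csf3r by 0.32 ± 0.13 (adjusted p = 0.619 by limma). The other 7 differences lay between 0.0079 for Elane and 0.14 for Ngp. The test called 0 of the 10 genes and 0% of all genes at an adjusted p under 0.05. At an unadjusted p under 0.05 it found 1 of the 10, Csf3r, and 7.93% of all genes.

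Among the 7 livers other than control replicate 1, the highest was an anti-miR-128-3p liver in all 10 genes, against 59.4% of all genes. It was anti-miR-128-3p replicate 1 in 7 of the 10. Setting aside the control liver that was highest in 8 of these genes favours an anti-miR-128-3p liver as the next highest. The share over all genes is therefore not a like comparison. The lowest of the 4 anti-miR-128-3p livers was replicate 2 in 8 of the 10 genes, and in S100a8, S100a9, Mpo, Elane, Ngp and Ltf it lay within the range of control replicates 2 to 4 or below it. Control replicate 2, on the other side, had S100a8, S100a9 and Ngp at levels of the anti-miR-128-3p livers. The median SD of the 10 genes was 0.20 in anti-miR-128-3p livers, against 0.70 in control livers and 0.12 in control replicates 2 to 4. The genes differed in this: Ly6g had a larger SD without control replicate 1 than with it, and in S100a8, S100a9, Ngp, Ly6g and Camp the SD of control replicates 2 to 4 was still above that of the anti-miR-128-3p livers. For S100a8 it was 0.40 in anti-miR-128-3p livers, against 0.57 in control replicates 2 to 4. Over all genes the median SD was 0.09 in both groups.

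**Figure D3:**
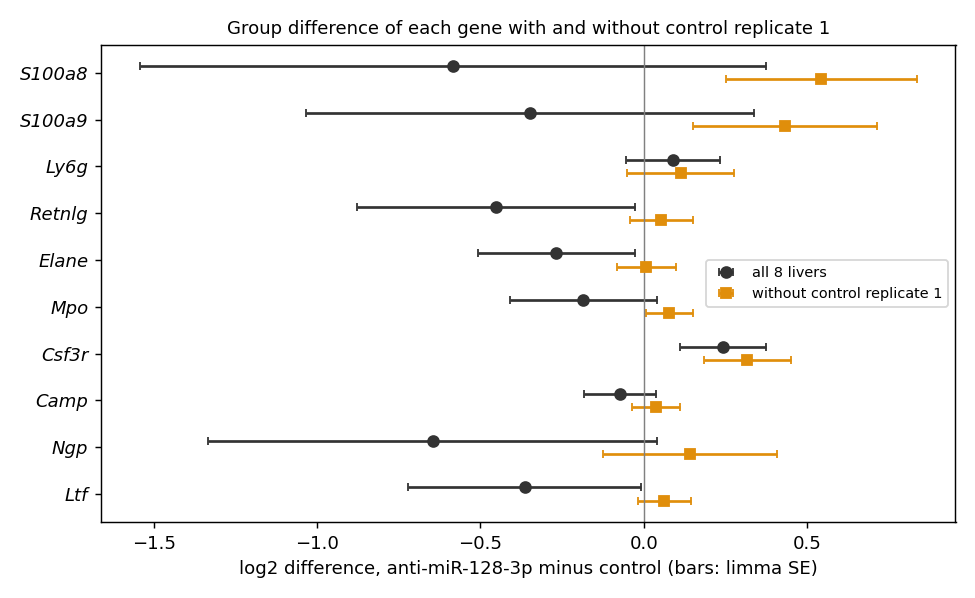
Log2 difference, anti-miR-128-3p minus control (x axis), of each neutrophil gene (y axis) with all 8 livers (circles) and without control replicate 1 (squares). Bars are the limma SE. In all, 8 of the 10 circles lie below 0, and all 10 squares lie above it.

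The 10 genes were less alike in pattern without control replicate 1. Over the 8 livers the median r of the 45 pairs was 0.89, and 40 pairs were above 0. Over the 7 livers without control replicate 1 the median was 0.455 and 34 pairs were above 0. Some pairs kept a like order among the 7: Ltf had r = 0.95 with Mpo and 0.92 with Ngp, and S100a8 had r = 0.81 with Ngp. Retnlg lost its likeness, with r = -0.03 to Ltf over the 7 livers against 0.97 over the 8. These correlations are over livers that share their arrays' processing and are given as a description. A single far liver raises r among the genes that are high in it, and no value for pairs over all genes was computed.

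Further genes of the neutrophil followed the same liver unevenly. None of the genes in 6 further lists (granules, mature cells, oxidase, regulators and recruitment) was called at an adjusted p under 0.05 by limma. Of 8 other genes of secondary and gelatinase granules, control replicate 1 was highest in 7, against 16.6% of all genes. It was at least 1 log2 unit above all other livers in 3, against 0.049% of all genes. Mmp8, a collagenase of the granules, was at 3.62, 3.63, 3.69 and 3.69 in anti-miR-128-3p livers, against 4.80, 3.65, 3.59 and 3.68 in control livers. Chil3, a chitinase-like protein also made by macrophages, was at 3.66, 3.48, 4.23 and 3.56 in anti-miR-128-3p livers, against 5.34, 3.44, 3.40 and 3.41 in control livers. Lcn2, the iron-scavenging lipocalin that hepatocytes also make, was at 8.27, 8.06, 9.44 and 8.97 in anti-miR-128-3p livers, against 10.5, 8.48, 7.38 and 7.43 in control livers. In these 3 genes the other control livers lay close to or below the anti-miR-128-3p livers. For Mmp8 and Chil3, all livers other than control replicate 1 were below the negative control medians. Of 7 other genes of the primary granule and promyelocyte, 5 were highest in control replicate 1 and 0 by 1 log2 unit. The median over these genes of the highest liver signal was 4.43, within the range of the negative control medians. Prtn3, the proteinase 3 gene, was at 5.94, 5.54, 5.70 and 5.76 in anti-miR-128-3p livers, against 6.31, 5.49, 5.47 and 5.57 in control livers. Serpinb1a, an inhibitor of elastase, was not high there: it was at 5.03, 5.94, 5.12 and 5.51 in anti-miR-128-3p livers, against 5.36, 5.73, 5.63 and 5.73 in control livers.

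Of 17 measured genes of mature neutrophils (20 listed), control replicate 1 was highest in 9, against 16.6% of all genes, and by 1 log2 unit in 0. The median over these genes of the highest liver signal was 3.94, below the negative control medians of 4.32 to 4.48. For many of them the lack of a rise therefore cannot be read as an absence of change. Wfdc21 was at 11.6 in control replicate 1, with the other 7 livers between 11.1 and 11.3. Il1b, the interleukin-1 beta gene, was lowest in that liver: it was at 6.39, 5.65, 5.63 and 5.95 in anti-miR-128-3p livers, against 5.27, 6.55, 5.36 and 6.51 in control livers. The phagocyte oxidase makes superoxide in neutrophils and macrophages. Control replicate 1 was highest in 0 of its 5 measured subunit genes (6 listed). With all 8 livers all 5 had a positive difference, while 50.9% of all genes had a negative one. The differences of Rac2 (0.02 ± 0.21) and Ncf4 (0.04 ± 0.08) were small beside their SE. Cyba differed by 0.31 ± 0.12 (limma adjusted p = 0.611) and Cybb by 0.51 ± 0.29 (limma adjusted p = 0.749). Of 10 measured regulators of granulocyte formation (12 listed), control replicate 1 was highest in 5, against 16.6% of all genes. Stat3, which carries the G-CSF and interleukin-6 signal, was at 9.20 in that liver, with 8.71 to 9.03 in anti-miR-128-3p livers and 8.55 to 8.81 in the other control livers. Cebpe, the C/EBP factor of secondary granule formation, was at 5.24 in it, against 5.24 to 5.27 in the other control livers. In anti-miR-128-3p livers Cebpe was at 4.97 to 5.68.

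Of 15 genes that draw neutrophils into tissue, 4 were highest in control replicate 1, against 16.6% of all genes. In 1 of them that liver was at least 1 log2 unit above the rest, against 0.049% of all genes. In the others the margin was about 0.10 log2 units or less. The gene with the wide margin was Cxcl1, a chemokine that attracts neutrophils through the receptor Cxcr2. It was at 7.68, 7.26, 7.55 and 6.69 in anti-miR-128-3p livers, against 9.15, 7.09, 5.81 and 5.68 in control livers. The order of the control livers was that of S100a8 for the first and second places, and the difference was 0.36 ± 0.69 with all livers and 1.10 ± 0.37 without control replicate 1 (limma adjusted p = 0.961 and 0.4995). Cxcl2, a related chemokine, stayed between 3.97 and 4.20 in anti-miR-128-3p livers, against 4.12 to 4.33 in control livers. In every liver the Cxcl2 signal was below the negative control median of the same array, so it may not have been detected. The adhesion molecule gene Vcam1 was at 6.12 in control replicate 1, with 5.38 to 6.18 in the other control livers and 6.03 to 7.07 in anti-miR-128-3p livers.

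Acute phase genes, which hepatocytes switch on under interleukin-6 and interleukin-1, were high in the same liver. Of the 10, control replicate 1 was highest in 6 and by 1 log2 unit in 2, Saa1 and Saa2, against 16.6% and 0.049% of all genes. Saa1, serum amyloid A, was at 11.1, 11.2, 10.9 and 10.9 in anti-miR-128-3p livers, against 12.9, 10.5, 9.57 and 9.90 in control livers. All 4 anti-miR-128-3p livers lay above control replicates 2 to 4 and below control replicate 1. The mean gene-centred level of the list was 0.12, 0.09, 0.17 and 0.16 in anti-miR-128-3p livers, against 0.89, -0.15, -0.68 and -0.60 in control livers. Without control replicate 1, 10 of 10 members had a positive difference, with a median of 0.45, against 53.1% of all genes. Leaving out the liver that was highest in 6 of them raises those differences by construction, so this is not a like comparison. Limma called 0 of them and 0% of all genes (adjusted p = 0.322 for Orm2 and 0.339 for Saa1).

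**Figure D4:**
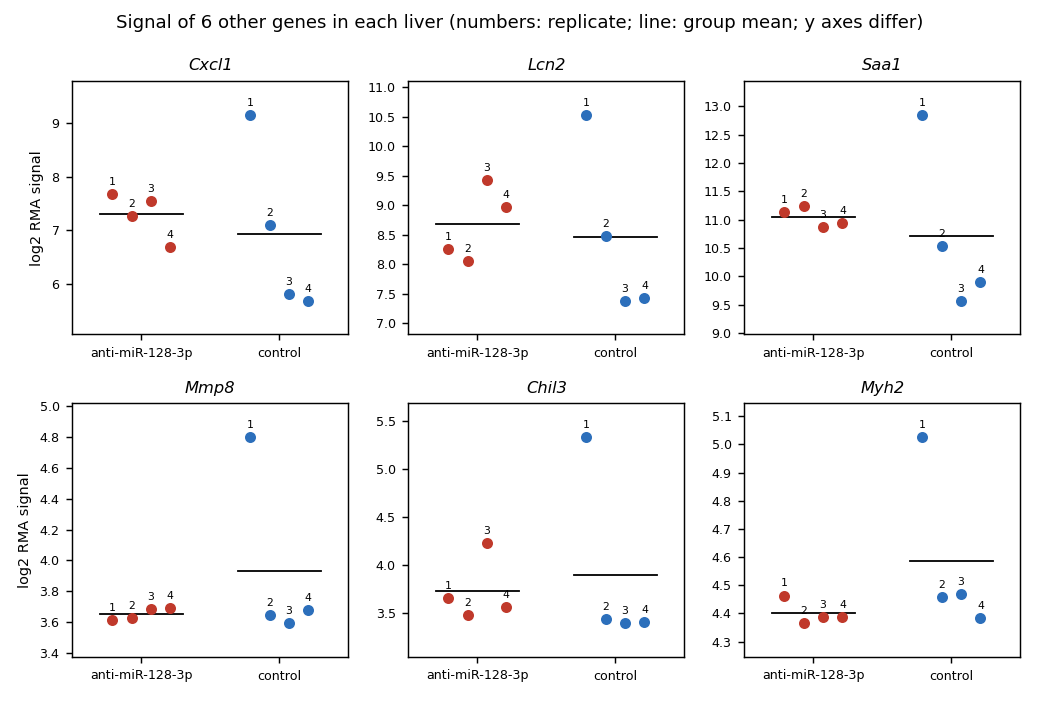
RMA log2 signal (y axis, scaled separately in each panel) of 6 genes outside the 10 in the anti-miR-128-3p and control livers (x axis), as points labelled by replicate with the group mean as a line. Control replicate 1 is the highest liver in each panel, and in Cxcl1, Lcn2 and Saa1 control replicates 3 and 4 are the lowest.

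The 12 protein-coding genes outside the 10 whose pattern over the 8 livers was most like the mean of the 10, among genes ranging over at least 0.5 log2 units, fell into a few kinds. They were Mmp9, Cd177, Myl1, Crybb3, Ifitm6, Myh1, Mmp8, Ttn, Myh2, Fcnb, Chil4 and Socs3, with r from 0.99 for Mmp9 to 0.95 for Socs3. Mmp9, a gelatinase, Cd177, a neutrophil surface protein, Mmp8 and the ficolin gene Fcnb are in the neutrophil lists above. Without control replicate 1 the r of the 12 ran from 0.85 for Mmp9 to 0.18 for Myh2. Cd177 was at 5.28, 5.11, 5.25 and 5.22 in anti-miR-128-3p livers, against 5.83, 5.10, 5.12 and 5.11 in control livers.

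Another 4 of the 12, Myl1, Myh1, Ttn and Myh2, encode contractile proteins of skeletal muscle. Myh2 was at 4.46, 4.37, 4.39 and 4.39 in anti-miR-128-3p livers, against 5.03, 4.46, 4.47 and 4.38 in control livers. In a list of 21 skeletal muscle genes drawn up after this was seen, control replicate 1 was highest in 18, against 16.6% of all genes. It was so by at least 1 log2 unit in 0. The list was prompted by genes picked for being high in that liver, and Myh2 is in it. Its count is therefore not independent of them. The mean gene-centred level of that list was -0.09 to 0.03 in anti-miR-128-3p livers, against 0.26 in control replicate 1 and -0.06 to -0.03 in the other control livers. Their part in the neutrophil result was not tested.

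Other blood cell lists moved little or not in the same direction in control replicate 1. Some of the neutrophil lists also moved little. The mean gene-centred level in that liver was 0.09 for mature neutrophil genes, 0.0007 for the oxidase and 0.13 for granulocyte regulators. It was 1.44 for the 10 genes. The mean gene-centred level of 7 measured erythroid genes (14 listed, none of the 4 globin genes having a probe set of its own) was -0.08 to 0.10 in anti-miR-128-3p livers, against -0.01 in control replicate 1 and 0.00 to 0.02 in the other control livers. The level of 7 platelet genes (9 listed) was -0.19 to 0.15 in anti-miR-128-3p livers, against -0.03 to 0.07 in control livers. For 10 eosinophil, mast cell and basophil genes (13 listed) it was -0.05 to 0.01 in anti-miR-128-3p livers, against -0.03 to 0.04 in control livers, with control replicate 1 at the upper end. The median over these genes of the highest liver signal was 3.62, below the negative control medians. For 6 blood progenitor genes the level was -0.11 to 0.10 in anti-miR-128-3p livers, against -0.11 to 0.05 in control livers. For 12 monocyte genes it was -0.05 to 0.45 in anti-miR-128-3p livers, against -0.12 in control replicate 1 and -0.43 to -0.03 in the other control livers. For 9 Kupffer cell genes it was -0.42 to 0.88 in anti-miR-128-3p livers, against -0.22 in control replicate 1 and -0.87 to 0.07 in the other control livers. The other lists looked at were the 10 B lineage genes (13 listed), with control replicate 1 highest in 0, the 8 T and NK cell genes (9 listed), also 0, the 12 cell division genes (13 listed), with 1, and the 7 hepatocyte genes, with 0. Hepatocyte genes such as albumin and apolipoprotein genes were at high signal, with a median of 13.4 over the list's highest liver values.

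With all 8 livers, 12 of 12 monocyte genes had a positive difference, with a median of 0.25. A negative one was seen in 8 of the 10 neutrophil genes and in 50.9% of all genes. The groups did not overlap in 2 of the 12 monocyte genes, against 4.41% of all genes. Without control replicate 1, 11 of 12 monocyte genes were positive, at a median of 0.28, as were all 10 neutrophil genes and 53.1% of all genes. That liver was the highest in 8 of the 10 neutrophil genes, so leaving it out raises their differences by construction. The like signs are therefore not a separate result. Csf3r, Cybb and the monocyte and Kupffer cell lists shared a low control replicate 3, where Csf3r was at 5.39, Cybb at 6.34 and the Kupffer cell level at -0.87. This was not particular to them. Control replicate 3 was also the lowest liver for the level of the 10 neutrophil genes, at -0.41, and of the acute phase list, at -0.68. Whether monocytes or Kupffer cells contribute to the Csf3r signal was not tested.

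**Figure D5:**
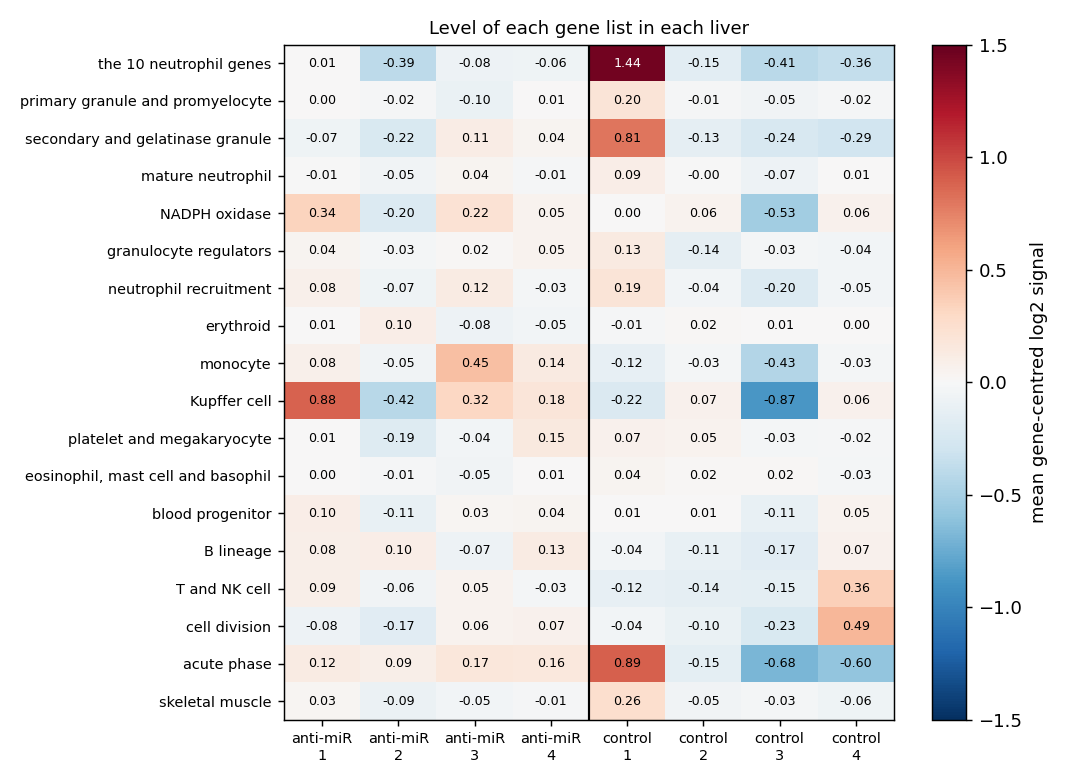
Mean gene-centred log2 signal (colour and printed value) of each gene list (rows) in each liver (columns), anti-miR-128-3p livers to the left of the line and control livers to the right. In control replicate 1 the 10 neutrophil genes stand at 1.44, the secondary granule list at 0.81 and the acute phase list at 0.89. The mature neutrophil list stands at 0.09 there and the oxidase list at 0.00. The erythroid and monocyte lists stand at -0.01 and -0.12.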

How the data were processed

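RNA of 8 mouse livers was measured on 8 Affymetrix arrays, each taken as 1 mouse, which numbered titles imply but no label states outright. The deposited values are log2 signals made by the authors with RMA, per the submitters' processing notes; software version and filtering: not given in the sources used here. Of 72688 rows, 6732 array controls were left out, and 31085 of the other 65956 probe sets name exactly 1 gene in the platform annotation (1665 listed ones name several and 33206 are unlisted), which gave 30632 genes after symbols were updated through Entrez IDs to RefSeq (GRCm38.p6, names only). A gene with several probe sets took the one with the highest mean over the 8 arrays.

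Groups were compared by limma's moderated linear model (version 3.58.1, under R 4.3.3; two-sided, without covariates), with Benjamini-Hochberg adjustment over all genes. Differences are anti-miR-128-3p minus control. The script was tested on simulated data. A list's level in a liver is the mean over its genes of signal minus the gene's mean over the 8 arrays. The number of arrays limits the precision. The 10 genes and the lists were chosen with earlier results of these data known. Text names the 10 genes, up to 4 genes of each list by smallest p and up to 4 by widest range, and the 12 of most like pattern; the skeletal muscle list was added after the values were seen. Python 3.11.15 and pandas 2.3.3 made the tables.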

Additional observations from a re-analysis of the deposited data

Results flagged for a closer look

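Several signals lay far from the other 3 livers of their group by Dixon's criterion for 4 values. Chance marks about 1 in 20 groups, and 1641 of all genes, 5.36%, were marked in the control group, 317 of them with control replicate 1 high. Among the 10 neutrophil genes, control replicate 1 stood apart in Retnlg at 5.627, Elane at 5.519, Mpo at 5.974 and Ltf at 6.299. S100a8, S100a9 and Ngp were not marked, because control replicate 2 also lay above control replicates 3 and 4. In Retnlg, anti-miR-128-3p replicate 3 stood apart at 3.884, which is below the negative control medians.

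Outside the 10 genes, control replicate 1 stood apart in Cd177 at 5.831, Chil3 at 5.338, Mmp8 at 4.797, Mmp9 at 5.577, Prtn3 at 6.315 and Socs3 at 7.269. It also stood apart in the muscle genes Myh1 at 4.65, Myh2 at 5.026, Myl1 at 4.111 and Ttn at 4.163. Control replicate 4 did so in Cebpe, at 5.269, where the 4 control livers spanned 0.03 log2 units. Other list genes were marked through other control livers, such as Ccl3 with control replicate 4 high at 5.48 and Lyz2 with control replicate 3 low at 7.73. Many of the genes given for control replicate 1 were named for a pattern like that of the 10 genes, which favours that liver. Marco, a scavenger receptor of Kupffer cells, was at 9.72 in anti-miR-128-3p replicate 1.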

How the results depend on the processing

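In 8 alternatives that kept all livers (moderation with trend and robust variance, array weights, 2 filters on low signal, probe set means, renewed quantile normalization, median centring and the replicate block), no difference of the 10 genes changed sign. Their median lay between -0.32 and -0.05, the latter with genes at or above the median level, where 4 of the 10 remained. With the replicate number as a block the median stayed at -0.31 and 0 genes were called. Same-numbered livers had deviations correlated at -0.042, -0.041, -0.108 and -0.149, so no shared deviation across genes was seen. A pairing with a small effect, or in few genes, could be missed by this check. Leaving out 1 liver at a time gave a median of -0.44 to 0.10 and 0 to 1 genes called over all genes, the 1 without control replicate 4. The member differences called at an adjusted p under 0.05 by limma numbered 0 throughout, and at an unadjusted p under 0.05 they numbered 0 with all livers. Leaving out 1 liver at a time moved S100a8 between -1.10 and 0.54, S100a9 between -0.70 and 0.43, Retnlg between -0.67 and 0.054, Elane between -0.37 and 0.0079, Mpo between -0.29 and 0.079, Camp between -0.14 and 0.037, Ngp between -1.01 and 0.14 and Ltf between -0.52 and 0.062, and in these 8 genes the positive end is the value without control replicate 1, the sole fit of the 8 in which they changed sign. Ly6g ran between -0.034, without control replicate 2, and 0.20. Csf3r kept its sign, between 0.17 and 0.36. Low signal limits all 10 genes: apart from S100a8 and S100a9 in control replicate 1, none exceeded the 95th percentile of the negative control rows in any liver.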

Other observations

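In the monocyte list, 0 of 12 genes were called at an adjusted p under 0.05 by limma and 3 at an unadjusted p under 0.05, against 7.63% of all genes. The groups did not overlap in 2, S100a4 and Plac8, against 4.41% of all genes. S100a4, a calcium-binding protein of monocytes and fibroblasts, was at 4.63, 4.63, 4.56 and 4.53 in anti-miR-128-3p livers, against 4.36, 4.28, 4.24 and 4.35 in control livers. These signals were near the negative control medians of 4.32 to 4.48, which limits what the S100a4 difference can show. Plac8 was at 5.72, 5.35, 6.22 and 5.76 in anti-miR-128-3p livers, against 5.12, 4.94, 4.66 and 5.17 in control livers. The differences were 0.28 ± 0.05 for S100a4 and 0.79 ± 0.18 for Plac8 (log2 difference ± SE), and neither passed limma's adjustment over all genes (adjusted p = 0.195 and 0.256). Ms4a4c overlapped between the groups, with 5.54, 5.32, 6.96 and 5.76 in anti-miR-128-3p livers and 4.98, 5.29, 4.80 and 5.37 in control livers.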
